A study of Mus musculus with 2 samples.

Results

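The neurexins Nrxn2 and Nrxn3, the leucine-rich repeat transmembrane proteins Lrrtm1, Lrrtm2, Lrrtm3 and Lrrtm4, the glypican Gpc4 and the receptor Gpr158 were followed across the nuclear classes of the mouse hippocampus. They were chosen by gene symbol, with earlier results of these data known, and 8 of the 33696 genes in the count matrices are members. Hippocampi were taken at postnatal day 19 and profiled by single-nucleus RNA sequencing. The control library came from Cicflox/flox mice, and the library labelled knockout came from Emx1-Cre; Cicflox/flox littermates, so both groups carry the floxed allele of Cic, the gene of the transcriptional repressor Capicua. Emx1-Cre recombines in the dorsal telencephalic lineage, which gives rise to the excitatory neurons and much of the glia of the hippocampus, while most inhibitory neurons arise elsewhere. Each group is 1 library, made from the pooled tissue of 2 male mice and 1 female mouse with 1 hippocampus taken per animal.

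Neurexins are presynaptic adhesion molecules that reach across the synaptic cleft to several families of postsynaptic ligands. Lrrtm1 and Lrrtm2 encode postsynaptic partners that bind the neurexin protein core, and Lrrtm3 and Lrrtm4 encode relatives that also bind heparan sulfate chains on neurexins and glypicans. Gpc4 encodes a glypican, a membrane-anchored heparan sulfate proteoglycan, and Gpr158 encodes an orphan receptor that binds it and is known for organising the synapse between mossy fibers, the axons of dentate granule cells, and CA3 pyramidal neurons.

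Lrrtm3 was the member that differed most often between the libraries, so the 250 bases before its RefSeq start are printed here. They lie on the minus strand of GRCm38.p6 at chr10:64090256-64090505 and are written 5′ to 3′ in the direction of the gene. The capitals mark CATTCA, which is TGAATG on the opposite strand, a core found in sequences that Capicua is known to bind.
Lrrtm3: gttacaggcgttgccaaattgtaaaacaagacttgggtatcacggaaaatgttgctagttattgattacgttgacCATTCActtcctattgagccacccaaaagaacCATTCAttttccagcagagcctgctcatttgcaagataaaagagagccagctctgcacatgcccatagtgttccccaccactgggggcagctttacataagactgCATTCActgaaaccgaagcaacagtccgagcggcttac
The core stands with its first printed base 175, 143 and 38 bases before the start. TGAATG was searched on both strands in the RefSeq table of 32851 promoters, each running from 250 bases before to 50 after a start. Of these promoters 12.7% held the core at least 1 time and 0.170%, or 56, held it at least 3 times. The 4 octamers TGAATGAA, TGAATGGA, TCAATGAA and TCAATGGA, of which the first and the second contain the core, were in 3.84% of the promoters and not in the one of Lrrtm3. The table held promoters for 6 of the 8 members. Among the others, Nrxn3 had 3 starts, of which 1 held the octamer TCAATGGA, with its first base 117 before the start and on the opposite strand, and the other two held 1 core each. Of the starts of Lrrtm4, 1 held the core, 47 bases before it. None of these letters stood in the promoters of Gpr158, Lrrtm1 and Gpc4. A match describes the sequence and is not evidence of binding.

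The control library held 25907 barcodes and 314453640 unique molecular identifiers (UMIs, each counting 1 captured RNA molecule), and the labelled knockout library held 23207 barcodes and 252995761 UMIs. After filtering, 21783 control and 20569 labelled knockout nuclei were used, with a median of 9786 and 8765 UMIs. The median mitochondrial share of UMIs was 0.0174% and 0.0329%, and the pooled share was higher in the labelled knockout library in all 15 classes described here, for example 0.0326% and 0.0574% in dentate granule-like nuclei, 0.0145% and 0.0200% in CA3-like nuclei and 0.0373% and 0.0769% in inhibitory-like nuclei. Its part in the results was not tested. Nuclei were named from marker genes, and 15 classes with at least 100 nuclei in each library held 87.0% of the control and 85.9% of the labelled knockout nuclei. Clusters were built without the 8 members. As a check of the labels, Etv4, a gene that Capicua represses, was higher in the labelled knockout library by a log2 ratio of 6.68 in dentate granule-like nuclei, 5.75 in CA3-like nuclei and 5.74 in CA1-like nuclei, against 2.00 for inhibitory-like nuclei, where its 48 and 171 UMIs did not reach the minimum of 10 CPM. It was also small in oligodendrocyte precursor-like (0.64), astrocyte-like (1.29) and cycling progenitor-like nuclei (1.95), whose control levels were higher. Cic itself was not lower, with log2 ratios of 0.46, 0.76, 0.87 and -0.03 in the same classes. A count over the whole gene need not see the deleted part and so does not check the deletion, and every direction given here is that of the library as labelled. The libraries shared 175 barcodes, 0.676% of the control and 0.754% of the labelled knockout barcodes.

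Levels are given as CPM, the usual scaling of a gene's UMIs to the total of its class, and a ratio is the log2 of labelled knockout over control with 0.5 UMI added. With 1 library per group no test was possible. The intervals given are 95% intervals for counting error only and do not cover the variation between mice. A gene was called apart where the libraries differed at least 2-fold and the higher one had at least 50 UMIs and 10 CPM. Nuclei assigned to a sex by their X- and Y-linked transcripts were also compared separately; female nuclei come from 1 mouse and male nuclei from 2 mice in each library, and they are a check within the pools, not replicates.

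Among 120 combinations of member and class, 101 passed the minimum of counts. Of these, 4 were called higher in the labelled knockout library and 0 lower. Some of the 12 alternatives described below added lower calls. These were Gpc4 in CA2-like nuclei (3 of 12), Gpc4 in oligodendrocyte-like nuclei with doublets kept, and Lrrtm3 in female cycling progenitor-like nuclei. The 4 higher calls were Lrrtm3 in CA3-like, CA2-like and Cajal-Retzius-like nuclei, and Nrxn3 in Cajal-Retzius-like nuclei. All 4 higher calls kept their sign when the sexes were taken apart. Of them 1, Lrrtm3 in CA3-like nuclei, was past 2-fold in each sex, but not in nuclei assigned to neither sex (0.95). Of all genes that passed the minimum, 1.65% were called in either direction in CA3-like, 3.48% in CA2-like and 1.82% in Cajal-Retzius-like nuclei. The members called were 1 of 7 that passed in CA3-like, 1 of 8 in CA2-like and 2 of 6 in Cajal-Retzius-like nuclei. In the other 12 classes 0 members were called. The share of all genes called there was 3.29% in dentate granule-like, 3.36% in CA1-like, 3.16% in oligodendrocyte-like, 1.55% in committed oligodendrocyte precursor-like and 1.09% in subicular or cortical excitatory-like nuclei. It was 0.921% in radial glia-like, 0.672% in microglia-like, 0.556% in cycling progenitor-like, 0.357% in immature dentate granule-like, 0.234% in astrocyte-like, 0.224% in oligodendrocyte precursor-like and 0.114% in inhibitory-like nuclei.

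**Figure D1:**
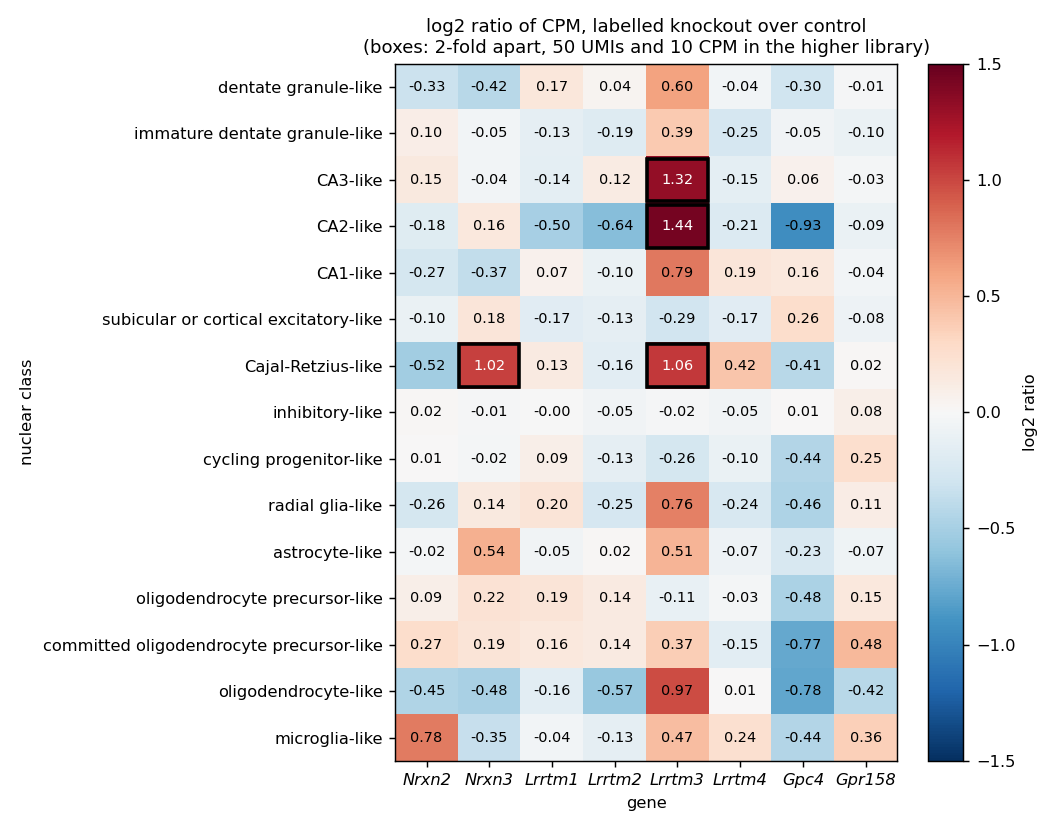
Log2 ratio of CPM, labelled knockout over control, for the 8 members (columns) in 15 nuclear classes (rows). Colour and number give the ratio, and boxes mark the 4 combinations at least 2-fold apart with enough counts. Ratios of Lrrtm3 run from -0.29 to 1.44 and are above 0 in 11 of 15 classes, while the inhibitory-like row stays between -0.05 and 0.08.

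In CA3-like nuclei, the targets of mossy fibers, 452 control and 938 labelled knockout UMIs came from Lrrtm3, which is 15.3 and 38.2 CPM. The labelled knockout library was the higher one by a log2 ratio of 1.32 (1.16 to 1.49). In female nuclei the levels were 16.5 and 39.2 CPM (log2 ratio 1.25), and in male nuclei 12.9 and 39.4 CPM (1.60). Both labelled knockout values lay above both control values. Nuclei assigned to neither sex held 121 and 174 of the Lrrtm3 UMIs (0.95), short of the 2-fold bound. The share of CA3-like nuclei with a Lrrtm3 UMI was 12.9% of 1246 control nuclei and 24.2% of 1186 labelled knockout nuclei, at median depths of 23180 and 20080 UMIs. Thinned to 2000 UMIs per nucleus, the shares were 2.65% and 7.50%. Microglia-like nuclei, which should lack the gene, had a Lrrtm3 UMI in 2.73% and 2.72% of nuclei at median depths of 1382 and 1203 UMIs. Per nucleus, CA3-like nuclei held 12.3 times as many Lrrtm3 UMIs as microglia-like nuclei in the control library and 21.8 times as many in the labelled knockout library. Relative to their own depth, microglia-like nuclei had 20.7 and 29.1 CPM, from 13 and 20 UMIs. These values stood above the CA3-like level in the control library and below it in the labelled knockout library. Counting intervals overlapped in both: 11.0 to 35.4 against 13.9 to 16.8 CPM, and 17.7 to 44.9 against 35.8 to 40.7 CPM. The 5 nuclei richest in Lrrtm3 held 15.0% and 8.64% of its UMIs, and without their counts the log2 ratio was 1.42. With nuclei called doublets kept, the ratio was 0.96 and the call was lost. The 7 CA3 markers summed to 1200 and 1157 CPM in the class. Subicular or cortical excitatory-like nuclei have the highest Lrrtm3 level. The summed level of their 7 markers in CA3-like nuclei was 2450 CPM in the control and 2103 CPM in the labelled knockout library. This sum was larger than that of the CA3 markers in both libraries, so it cannot show whether a few such nuclei were present. Their part in the result was not tested. Cajal-Retzius markers summed to 8.82 and 25.2 CPM in CA3-like nuclei, and their part was not tested either.

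The CA3-like class held 2 clusters, and Lrrtm3 was higher in the labelled knockout library in both. In cluster 8, with 865 and 755 nuclei, it had 110 and 321 UMIs, or 5.02 and 18.7 CPM (log2 ratio 1.89, 1.58 to 2.22), and it was the one member called there, where 2.11% of all genes were. In cluster 14, with 381 and 431 nuclei, it had 342 and 617 UMIs, or 44.6 and 83.5 CPM (0.90, 0.71 to 1.10). Cluster 14 was short of the 2-fold bound with all nuclei, past it in female (1.08) and male nuclei (1.20), and 1.52% of all genes were called there. Cluster 14 thus had the higher level and cluster 8 the larger ratio. In CA2-like nuclei, a small class of 144 and 117 nuclei, Lrrtm3 had 32 and 61 UMIs, or 9.13 and 24.9 CPM (1.44, 0.81 to 2.11). Its UMIs there came from 14 control and 21 labelled knockout nuclei. Of these UMIs, the 5 richest nuclei held 65.6% in the control and 47.5% in the labelled knockout library. Without their counts 11 and 32 UMIs were left (log2 ratio 2.02), under the minimum of UMIs for a call. The ratio was 3.46 in female nuclei (40 control and 37 labelled knockout nuclei) and 0.83 in male nuclei (65 and 57). The CA2-like level lay below the 20.7 and 29.1 CPM of microglia-like nuclei in both libraries, while per nucleus it was 7.50 and 14.4 times theirs. The counting intervals of these levels in CPM overlapped in both libraries. Immature granule markers summed to 36.8 and 76.4 CPM in the class and committed oligodendrocyte precursor markers to 154 and 216 CPM, and their part in the result was not tested.

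In CA1-like nuclei Lrrtm3 had 4623 and 6263 UMIs, or 86.4 and 149 CPM (log2 ratio 0.79, 0.73 to 0.85), higher in the labelled knockout library but less than 2-fold. Marker sums moved in this class too. The 6 CA1 markers summed to 815 and 605 CPM, which mostly followed Man1a, with 587 and 343 CPM. Wfs1 (17.8 and 5.29 CPM) and Fibcd1 (17.2 and 14.4 CPM) were also lower, Mpped1 was higher (124 and 174 CPM), and the others changed little. Immature granule markers summed to 51.9 and 110 CPM and Cajal-Retzius markers to 7.51 and 31.7 CPM. The part of these marker differences in the result was not tested. The pair of CA1-like clusters differed: in cluster 5 Lrrtm3 had 183 and 294 CPM (0.68), and in cluster 4 it had 14.6 and 16.7 CPM (0.20, -0.01 to 0.40). Cluster 5, with the higher level, held 39.3% of the control and 44.5% of the labelled knockout nuclei of the class. The class ratio of 0.79 was larger than that of either cluster. In dentate granule-like nuclei, the source of mossy fibers, Lrrtm3 had 10742 and 11855 UMIs, or 191 and 291 CPM (0.60, 0.57 to 0.64). There the granule markers summed to 4327 and 3571 CPM, the immature granule markers to 92.3 and 154 CPM, the inhibitory markers to 84.5 and 129 CPM and the Cajal-Retzius markers to 7.46 and 44.9 CPM, and their part was not tested either. Most granule-like nuclei of the 2 libraries fell in different clusters. Cluster 0 held 1224 control and 3544 labelled knockout nuclei, and cluster 3 held 3354 and 123. Lrrtm3 was higher in the labelled knockout library in each: 110 against 289 CPM in cluster 0 (1.39, 1.31 to 1.47) and 216 against 334 CPM in cluster 3 (0.63, 0.50 to 0.76). Cluster 0 passed the 2-fold bound in female and in male nuclei, with ratios of 1.32 and 1.51, although the class as a whole did not. Since these clusters divide by library, the class and cluster values describe different comparisons and do not settle which applies to a granule cell. Of all genes, 3.32% were called in cluster 0, where Lrrtm3 was 1 of 8 members that passed, and 3.33% in cluster 3, where 0 members were called.

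Oligodendrocyte-like nuclei had 1347 and 2227 Lrrtm3 UMIs, or 135 and 265 CPM (log2 ratio 0.97, 0.88 to 1.07), just short of the 2-fold bound. Cluster 20 of that class had 26.0 and 125 CPM (2.25, 1.93 to 2.61) and was called, as were 3.51% of all genes there. Cluster 9 had 190 and 380 CPM (1.00, 0.89 to 1.10), short of the bound, and 3.63% of all genes were called there. Cluster 9, with the higher level, held 75.2% of the control and 61.6% of the labelled knockout nuclei of the class, and both clusters had a larger ratio than the class. In Cajal-Retzius-like nuclei, with 177 and 228 nuclei, Lrrtm3 had 97 and 227 UMIs, or 93.1 and 195 CPM (1.06, 0.72 to 1.43). The ratio was 0.56 in female and 1.68 in male nuclei, and the class has few nuclei. With doublets kept it was 0.52. Oligodendrocyte precursor markers, from the class with the next-highest Lrrtm3 level after the subicular or cortical one, summed to 82.5 and 132 CPM in Cajal-Retzius-like nuclei, and their part in the result was not tested. Ratios in radial glia-like (0.76), astrocyte-like (0.51), immature dentate granule-like (0.39) and committed oligodendrocyte precursor-like nuclei (0.37) were above 0. Of these, the astrocyte-like and the committed precursor-like nuclei were below 0 in female nuclei, at -0.41 and -0.08.

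The classes with the highest Lrrtm3 levels did not show this direction. Subicular or cortical excitatory-like nuclei had 1220 and 996 CPM (log2 ratio -0.29, -0.33 to -0.26), and oligodendrocyte precursor-like nuclei had 982 and 908 CPM (-0.11, -0.17 to -0.06). Inhibitory-like nuclei, mostly outside the Emx1 lineage, had 10851 and 9435 UMIs, or 503 and 497 CPM (-0.02, -0.06 to 0.02). Cycling progenitor-like nuclei had 365 and 305 CPM (-0.26), but most of these UMIs came from a minority of the class. Cluster 29, with 96 and 103 nuclei and oligodendrocyte precursor markers as its next-highest set, held 563 of 627 and 399 of 410 UMIs, at 856 and 688 CPM. Cluster 21, with 302 and 268 nuclei, had 60.3 and 14.4 CPM. Over the whole cycling progenitor-like class, female nuclei had 138 and 37 UMIs, past 2-fold and lower (-1.23), and male nuclei 321 and 217 UMIs (-0.27). In cluster 21 of that class Lrrtm3 had 64 and 11 UMIs (log2 ratio -2.02), from 20 and 9 nuclei, and was called lower, while 1.4% of all genes were called in either direction. The sign differed between the sexes in cluster 21, at 0.85 in female and -1.91 in male nuclei. In the control library cycling progenitor-like (365 CPM, pooled over both of its clusters), immature dentate granule-like (353 CPM) and committed oligodendrocyte precursor-like nuclei (331 CPM) stood between the inhibitory-like and the dentate granule-like nuclei, and the counting intervals of neighbours among these 3 overlapped. Those of Cajal-Retzius-like and CA1-like nuclei overlapped too.

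**Figure D2:**
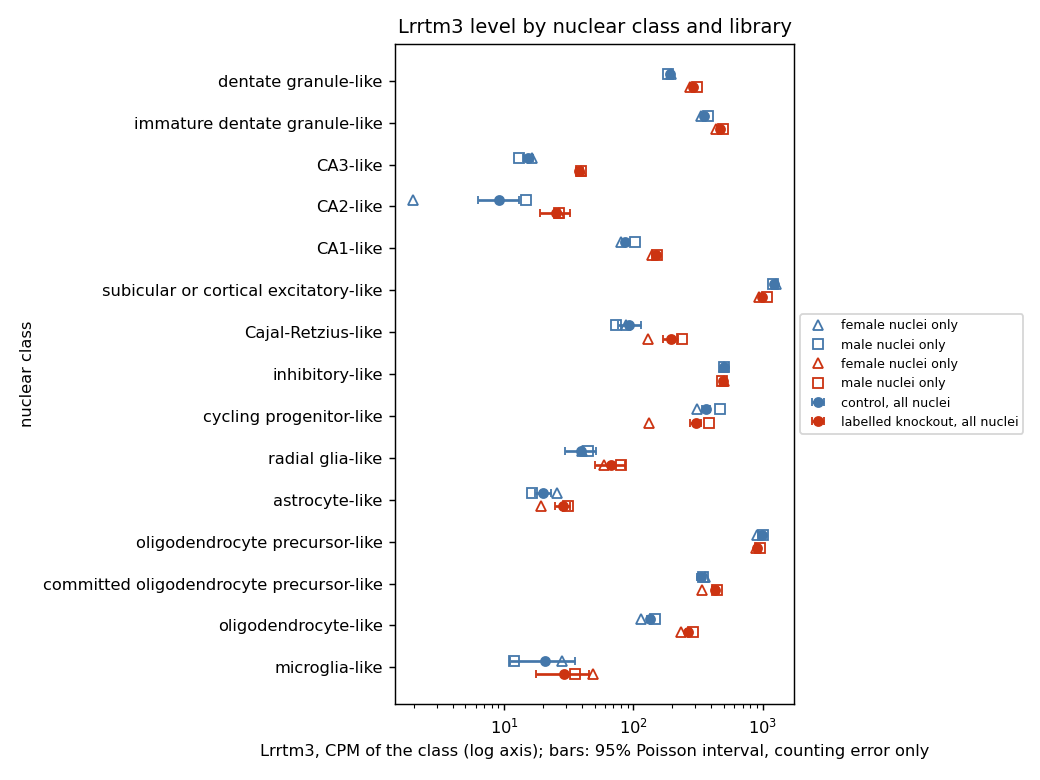
Lrrtm3 level in CPM on a log axis in 15 nuclear classes. Filled circles are all nuclei of the control (blue) and labelled knockout (red) library with 95% Poisson intervals, open triangles are female and open squares male nuclei. The red circle lies to the right of the blue one in 11 classes, among them CA3-like with 15.3 and 38.2 CPM, and to its left in the other 4.

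Lrrtm3 lies inside an intron of Ctnna3, which encodes an alpha-catenin that links cadherins to actin, on the opposite strand. Likewise Lrrtm1 lies inside Ctnna2 and Lrrtm2 inside Ctnna1. Lrrtm3 and Ctnna3 have separate counts. Whether the counting used strand is not given in the sources used here, and whether reads of one gene were counted for the other was not tested. In CA3-like nuclei Ctnna3 had 313 and 613 UMIs, or 10.6 and 24.9 CPM (log2 ratio 1.24, 1.04 to 1.44), and it was past 2-fold in female and in male nuclei (1.42 and 1.36). It too was called higher in Cajal-Retzius-like nuclei (1.32), and its ratio was 1.31 in CA2-like, 0.84 in oligodendrocyte-like nuclei, 0.76 in the CA1-like class and 0.61 in the dentate granule-like class. In inhibitory-like nuclei it was 0.03 and in subicular or cortical excitatory-like nuclei -0.24. The ratios of both genes thus ran in parallel across classes. Over 15 classes from the same pair of libraries, their Pearson correlation was 0.88, with a median absolute difference of 0.08 and the largest, 0.98, in microglia-like nuclei, where both genes had few UMIs. The same measure was 0.31 for Lrrtm1 and Ctnna2 and -0.27 for Lrrtm2 and Ctnna1.

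The levels of Lrrtm3 and Ctnna3 were less parallel than their ratios. In the control library the CPM of Lrrtm3 divided by that of Ctnna3 ranged from 0.126 in oligodendrocyte-like to 2.69 in Cajal-Retzius-like nuclei. These CPM are not per length, so the quotient is compared between classes and not read as an order of the genes. Within the labelled knockout CA3-like nuclei, 63.4% of the nuclei with a Ctnna3 UMI and 12.9% of those without one had a Lrrtm3 UMI. In the control library these shares were 51.0% and 7.44%. Of the control nuclei with a Lrrtm3 UMI, 80 of 161 also had a Ctnna3 UMI, and of the labelled knockout nuclei 168 of 287. Depth and cluster were not held constant in these shares.

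**Figure D3:**
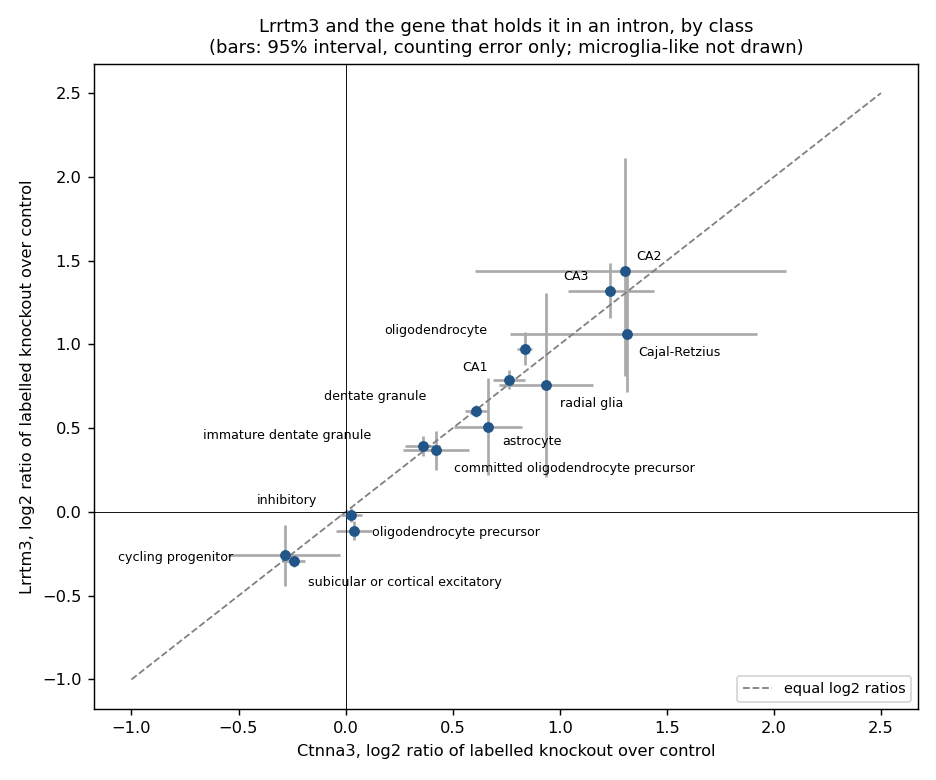
Log2 ratio of labelled knockout over control for Ctnna3 (horizontal) and Lrrtm3 (vertical) in 14 classes, with 95% intervals for counting error and a dashed line of equal ratios. The subicular or cortical excitatory class (-0.24 and -0.29) and the cycling progenitor class (-0.28 and -0.26) lie at the lower end, the CA3 class (1.24 and 1.32) and the CA2 class (1.31 and 1.44) at the upper end, and the Cajal-Retzius class (1.32 and 1.06) lies below the line. The microglia-like class, with 13 and 20 Lrrtm3 UMIs, is not drawn.

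Lrrtm4, the relative of Lrrtm3 that is known from dentate granule cell dendrites, was highest in dentate granule-like nuclei. It had 660173 and 466315 UMIs there, or 11760 and 11435 CPM (log2 ratio -0.04, -0.05 to -0.03). The next classes were inhibitory-like with 6837 and 6601 CPM and immature dentate granule-like with 5444 and 4573 CPM. Of the 15 classes that passed the minimum for Lrrtm4, 13 had a ratio within 0.25 of 0. The exceptions were immature dentate granule-like (-0.251) and Cajal-Retzius-like nuclei, the latter with 1226 and 1637 CPM (0.42). With doublets kept the Cajal-Retzius-like ratio was -0.16. CA3-like nuclei had 1079 and 972 CPM (-0.15).

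CA1-like nuclei as a class had 1589 and 1808 CPM of Lrrtm4 (log2 ratio 0.19, 0.17 to 0.20), but their clusters differed. In cluster 4 Lrrtm4 had 8676 and 14941 UMIs, or 282 and 683 CPM (1.28, 1.24 to 1.31). Female nuclei of the cluster had 267 and 699 CPM (1.39) and male nuclei 312 and 668 CPM (1.10), so both sexes were past 2-fold. The share of nuclei with a Lrrtm4 UMI there was 45.3% of 1634 and 63.8% of 1338 nuclei, the median among nuclei with at least 1 UMI was 1 and 8 UMIs, and the upper quartile over all nuclei was 1 and 13 UMIs. In cluster 5, where the gene is more abundant, it had 3353 and 3035 CPM (-0.14), with 0.24 in female and -0.36 in male nuclei. Both clusters were singled out after their values were seen. Of all genes tested, 4.25% were called in cluster 4 and 2.89% in cluster 5. Lrrtm4 was the one member called among the 8 that passed in cluster 4, and 0 of 8 were called in cluster 5.

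The 2 remaining Lrrtm genes had low levels and no class past 2-fold. Lrrtm1 had 37.1 and 41.9 CPM in dentate granule-like nuclei (log2 ratio 0.17, 0.08 to 0.27), 32.4 and 29.3 CPM in CA3-like nuclei (-0.14) and 31.5 and 33.0 CPM in CA1-like nuclei (0.07). By granule cluster Lrrtm1 had 41.3 and 42.2 CPM in cluster 0 and 35.8 and 32.6 CPM, from 1537 and 50 UMIs, in cluster 3. Its highest class was immature dentate granule-like with 65.1 and 59.4 CPM, and over the classes it varied 4.77-fold in the control library. Lrrtm2 had 11.4 and 11.8 CPM in dentate granule-like nuclei (0.04), 11.1 and 12.1 CPM in CA3-like nuclei (0.12) and 14.9 and 13.9 CPM in CA1-like nuclei (-0.10), and it varied 2.67-fold over the classes. For most neighbours in the order of classes of Lrrtm1 and Lrrtm2 the counting intervals overlapped. Their host Ctnna2 had a ratio of 0.17 for the dentate granule-like, -0.15 for the CA3-like and 0.27 for the CA1-like class, and for Ctnna1 these were -0.28, 0.15 and -0.04.

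On the neurexin side, Nrxn3 was most abundant in inhibitory-like nuclei with 12015 and 11902 CPM (log2 ratio -0.01, -0.02 to -0.01), CA2-like nuclei with 11769 and 13138 CPM (0.16) and CA3-like nuclei with 8872 and 8632 CPM (-0.04). It was lower in the labelled knockout library in CA1-like nuclei, with 296062 and 179791 UMIs or 5532 and 4288 CPM (-0.37, -0.38 to -0.36), in female nuclei (-0.38) and in male nuclei (-0.36). In CA1-like cluster 4 the levels were 7520 and 5564 CPM (-0.43) and in cluster 5 they were 2848 and 2895 CPM (0.02). The lower class value thus came with cluster 4, the cluster in which Lrrtm4 was higher.

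Dentate granule-like nuclei had 54226 and 29454 Nrxn3 UMIs, or 966 and 722 CPM (log2 ratio -0.42, -0.44 to -0.40). Within each cluster of the class the sign was the opposite: 501 and 677 CPM in cluster 0 (0.43, 0.39 to 0.47) and 1109 and 1888 CPM in cluster 3 (0.77, 0.71 to 0.82). Both clusters had this sign in female and in male nuclei. Cluster 3, with the higher Nrxn3 level, held 73.3% of the control and 3.35% of the labelled knockout nuclei of the class, so the class value and the cluster values describe different comparisons. Since the clusters themselves divide by library, they do not settle which applies to a granule cell.

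Nrxn3 was called higher in Cajal-Retzius-like nuclei with 213 and 483 UMIs, or 204 and 415 CPM (log2 ratio 1.02, 0.79 to 1.26). The ratio was 0.30 in female nuclei and above 0 in male nuclei too. Nuclei assigned to neither sex held 60 and 244 of the Nrxn3 UMIs (1.86). Of its UMIs, 5 nuclei held 34.7% in the control and 61.1% in the labelled knockout library, and without their counts the ratio was 0.27. The share of nuclei with a UMI was 42.4% and 38.2%, and the median among nuclei with at least 1 UMI was 1 in both libraries. Microglia-like nuclei had 242 and 190 CPM, above the control level of this class and below its labelled knockout level. The counting intervals overlapped in the control library (205 to 284 against 178 to 234 CPM) and were apart in the labelled knockout library. Per nucleus, Cajal-Retzius-like nuclei held 3.48 and 8.91 times as many Nrxn3 UMIs as microglia-like nuclei. The value with 2000 UMIs per nucleus was 0.39. Subicular or cortical excitatory-like and inhibitory-like nuclei, with 3019 and 12015 CPM in the control library, hold far more Nrxn3 than this class. In Cajal-Retzius-like nuclei the subicular or cortical excitatory markers summed to 483 and 524 CPM and the inhibitory markers to 126 and 135 CPM. The part of such cells in the result was not tested.

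Nrxn2 was highest in oligodendrocyte precursor-like nuclei with 367 and 391 CPM (log2 ratio 0.09) and astrocyte-like nuclei with 203 and 200 CPM (-0.02). In dentate granule-like nuclei it had 44.7 and 35.7 CPM (-0.33, -0.42 to -0.23), lower in the labelled knockout library in both sexes (-0.21 and -0.32). Its sign differed between the clusters of that class, with 44.7 and 35.2 CPM in cluster 0 (-0.35, -0.49 to -0.20) and 1921 and 75 UMIs in cluster 3 (0.14, -0.23 to 0.46). In CA1-like nuclei it had 56.2 and 46.6 CPM (-0.27, -0.35 to -0.18), and in CA3-like nuclei 41.3 and 45.7 CPM (0.15, 0.03 to 0.26). None of these reached 2-fold.

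**Figure D4:**
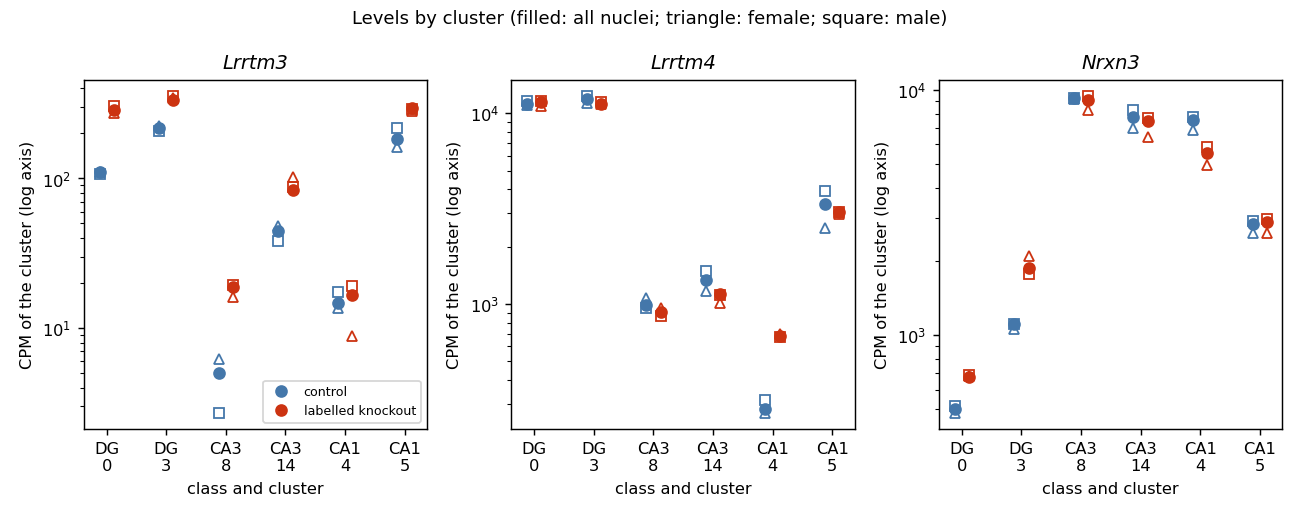
Levels of Lrrtm3, Lrrtm4 and Nrxn3 in CPM on log axes in the clusters of the dentate granule-like (DG), CA3-like and CA1-like classes. Filled circles are all nuclei of the control (blue) and labelled knockout (red) library, triangles female and squares male nuclei. Lrrtm3 is higher in red in DG 0 (110 and 289 CPM) and CA3 8 (5.02 and 18.7 CPM), Lrrtm4 in CA1 4 (282 and 683 CPM), and Nrxn3 is higher in red in both DG clusters.

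Gpc4 had its highest level in dentate granule-like nuclei, with 7046 and 4160 UMIs or 126 and 102 CPM (log2 ratio -0.30, -0.35 to -0.24). Female nuclei had a ratio of -0.16 and male nuclei of -0.41. By cluster it was 94.2 and 101 CPM in cluster 0 (0.11) and 135 and 119 CPM in cluster 3 (-0.18, -0.41 to 0.02), so the sign differed between clusters. CA1-like nuclei had 33.1 and 36.9 CPM (0.16), and CA3-like nuclei had 3.85 and 4.03 CPM, from 114 and 99 UMIs, below the 10 CPM minimum. The largest difference, in CA2-like nuclei, rested on 50 and 18 UMIs (-0.93, -1.82 to -0.15), with 0.29 in female and -1.05 in male nuclei. It was short of the 2-fold bound but passed it, lower in the labelled knockout library, with median-of-ratios scaling, with TMM scaling (-1.06) and with each nucleus counted alike (-1.01), and it was above 0 at 2000 UMIs per nucleus (0.30).

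Gpr158, the receptor of the pair, was highest in Cajal-Retzius-like nuclei with 1481 and 1501 CPM (log2 ratio 0.02), CA2-like nuclei with 906 and 848 CPM (-0.09) and CA3-like nuclei with 808 and 792 CPM (-0.03). Dentate granule-like nuclei had 496 and 491 CPM (-0.01, -0.04 to 0.01) and CA1-like nuclei 519 and 506 CPM (-0.04). Within the granule clusters the labelled knockout library was the higher one, with 387 and 487 CPM in cluster 0 (0.33, 0.29 to 0.38) and 530 and 602 CPM in cluster 3 (0.18, 0.09 to 0.28), the latter with -0.01 in female nuclei. In CA1-like cluster 4 Gpr158 had 470 and 421 CPM (-0.16) and in cluster 5 it had 586 and 598 CPM (0.03). Of 13 classes that passed the minimum, 11 were within 0.25 of 0. The largest ratios were 0.48 in committed oligodendrocyte precursor-like and -0.42 in oligodendrocyte-like nuclei, where the levels were at most 36.9 CPM. In the committed precursor-like class the sign differed between the sexes, at -0.40 in female and 0.65 in male nuclei.

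For the dentate granule-like class the median ratio of the 8 members was -0.03, against 0.02 over all tested genes. It was 0.02 against 0.07 for the CA3-like, 0.02 against 0.10 for the CA1-like and -0.01 against 0.04 for the inhibitory-like class. The members' median includes members under the minimum, while all tested genes passed it. Over only the members that passed, the CA3-like value was -0.03. Over the 15 classes the median of all 8 members was lowest for the oligodendrocyte-like (-0.44 against -0.09) and the CA2-like class (-0.19 against 0.07) and highest for the committed oligodendrocyte precursor-like class (0.18 against 0.01). Over only the members that passed, it was lowest for the oligodendrocyte-like (-0.42) and the radial glia-like class (-0.24) and highest for the Cajal-Retzius-like class (0.22). Most members were low in oligodendrocyte-like nuclei. Per control nucleus, the UMIs were 0.92 (Gpc4) to 6.92 times (Nrxn2) those of microglia-like nuclei, apart from Lrrtm3 with 38.3 times. The part of such low levels in the median was not tested.

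The order of classes was much the same in the 2 libraries. Across the 15 classes, the correlation of log2 levels between libraries ranged from 0.90 for Lrrtm2 to 1.00 for Lrrtm4 and Gpr158. Over the same classes of the control library, and among 16442 features, the genes with the pattern most like that of Lrrtm3 were Grik3, a kainate receptor subunit (Pearson r 0.94), and Pcdh15 (0.87). For Lrrtm4 they were Dpp6, an auxiliary subunit of potassium channels (0.92), and Fam169a (0.91). For Nrxn3 they were Iqcj (0.91) and Osbpl6 (0.90), for Nrxn2 A530083I20Rik (0.90) and Lmcd1 (0.89), and for Gpr158 Kcnma1, a calcium-activated potassium channel (0.91), and Rit2 (0.90). For Lrrtm1 they were Rrp15 (0.88) and Bcs1l (0.87), for Lrrtm2 Fam98a (0.86) and Adam18 (0.79), and for Gpc4 Ccdc6 and Bcl6 (both 0.77). Classes share a library and differ in depth, and these values only describe likeness of pattern.

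Partners of the members were counted over 84 listed genes, which were also chosen with earlier results of these data known. In dentate granule-like nuclei 66 passed the minimum, of which 4 were called higher and 3 lower in the labelled knockout library, beside 3.29% of all genes called in the class. All 7 were past 2-fold in female and in male nuclei. The glypicans Gpc3, with 11.4 and 84.8 CPM (log2 ratio 2.89), and Gpc6, with 402 and 815 UMIs (1.48), were higher, and Gpc3 is among the 10 genes that lead cluster 0. Epb41l2, a membrane skeleton protein, had 344 and 634 UMIs (1.34). The 3 lower genes were the heparan sulfate N-sulfotransferases Ndst3, with 23.9 and 9.64 CPM (-1.31), and Ndst4, with 147 and 60.9 CPM (-1.27), and the 6-O-sulfotransferase Hs6st3, with 465 and 194 CPM (-1.26). They are 3 of 13 genes of heparan sulfate synthesis that passed, beside the same 3.29% of all genes.

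In CA3-like nuclei, 63 of the 84 genes passed, and Ctnna3 was the one called, beside 1.65% of all genes. In CA1-like nuclei 67 passed, of which 3 were called higher and 0 lower, beside 3.36% of all genes. Gpc6 had 130 and 460 CPM (log2 ratio 1.82, past 2-fold in both sexes), Lin7a, a scaffold protein bound to Cask at neurexin tails, had 108 and 233 CPM (1.11), and Gpc3 had 18.6 and 38.0 CPM (1.03). Lin7a had ratios of 0.89 in female and 1.25 in male nuclei, and Gpc3 had 0.23 and 1.46. In inhibitory-like nuclei 0 of 70 were called, beside 0.114% of all genes.

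**Figure D5:**
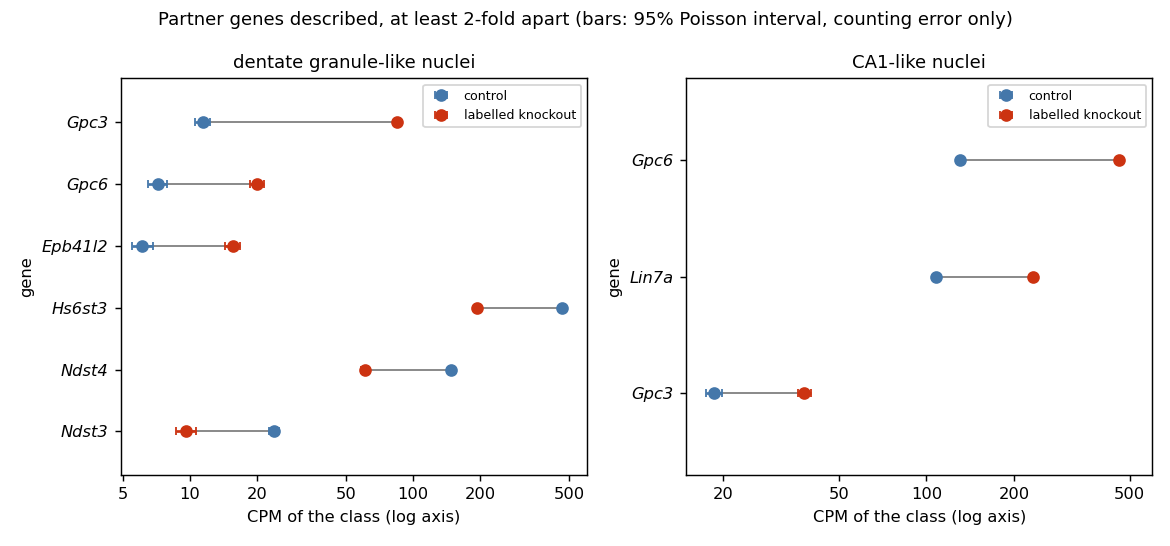
Partner genes described in the text that were at least 2-fold apart in dentate granule-like (left) and CA1-like nuclei (right), as CPM on log axes in the control (blue) and labelled knockout (red) library with 95% Poisson intervals. In dentate granule-like nuclei Gpc3, Gpc6 and Epb41l2 are higher in red and Hs6st3, Ndst4 and Ndst3 lower; in CA1-like nuclei Gpc6, Lin7a and Gpc3 are higher in red.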

How the data were processed

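Per the submitters' processing notes and the file headers, the authors ran Cell Ranger 8.0.1, and the deposited values are UMI counts that were not normalized. Whether intronic reads and strand were used in counting is not given in the sources used here.

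Nuclei with at least 500 genes and at most 5% mitochondrial UMIs were kept, and doublets were called with Scrublet in scanpy 1.11.5 and left out (13.1% of control and 10.7% of labelled knockout nuclei). Both libraries were clustered together by the Leiden method at resolution 1, on 3000 variable genes without the members and 30 principal components, with no batch correction. Clusters were named from 22 marker sets, needing at least 3 raised markers, and 11.9% and 12.5% of nuclei stayed unnamed. Some stayed so because their depth was under the limit and none of their 10 leading genes was in their marker set. Among these was cluster 7, closest to microglia, with 1048 and 924 nuclei and medians of 2426 and 2054 UMIs. The microglia-like class is cluster 12, which was shallower, at medians of 1382 and 1203 UMIs, but had a marker among its leading genes. Female nuclei had 2 or more Xist UMIs and none of 4 Y-linked genes, and male nuclei had 1 or more Y-linked UMIs and none of Xist. UMIs were summed per library and class. Intervals are exact Poisson (levels) or exact conditional binomial (ratios). On simulated counts the calculation was tested before use.

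The members and lists were chosen with earlier results of these data known. Named are all members, listed genes past the size rule in the CA1-like, CA3-like or dentate granule-like class (up to 6 per class and direction), the hosts Ctnna1, Ctnna2 and Ctnna3, the 2 features most correlated with each member, and Cic and Etv4; some results that this rule would name are not reported here. Overlaps of genes come from GENCODE for GRCm38, which held 31961 of the 33696 gene identifiers, and promoters from RefSeq. The alternatives were 12 planned settings and 2 added after the data were seen (each cluster alone, and without the 5 richest nuclei).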

Additional observations from a re-analysis of the deposited data

How the results depend on the processing

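Over 12 alternatives (median-of-ratios or TMM scaling, 20 UMIs and no minimum CPM, doublets kept, female or male nuclei only, 2000 UMIs per nucleus, nuclei counted alike, free RNA subtracted, Leiden resolution 2, members used in clustering and 1 UMI added), the number of members called was 0 in dentate granule-like, CA1-like and inhibitory-like nuclei each time. It was 1 in CA3-like nuclei except with doublets kept, where it was 0. By cluster, chosen after the data were seen, 1 was called in granule cluster 0, 0 in CA3 cluster 14 and 1 in CA1 cluster 4. Over all classes the 4 became 6 with median-of-ratios scaling, which added Lrrtm3 in oligodendrocyte-like nuclei (1.07) and, as a lower call, Gpc4 in CA2-like nuclei, 2 with doublets kept (Lrrtm3 in CA2-like nuclei and, lower, Gpc4 in oligodendrocyte-like nuclei), 2 in male nuclei and 1 at 2000 UMIs per nucleus; the cause was not tested. Of 1432 single values under these alternatives, 1146 moved by less than their counting interval, 286 by more, and 0 called values changed sign. Lrrtm3 in CA3-like nuclei ranged from 0.96 to 1.60 and stayed past the bound in 11 of 12, in CA2-like nuclei from 0.83 to 3.46 (9 of 12), and in Cajal-Retzius-like nuclei from 0.52 to 1.68 (6 of 12). Nrxn3 in Cajal-Retzius-like nuclei ranged from 0.30 to 1.34 (6 of 12). The setting of 20 UMIs and no minimum CPM left every ratio as it was and could not remove a call. It is therefore in each of these counts, and its values are all among the 1146. TMM shifted all ratios by over 0.1 in CA2-like (0.13) and CA1-like nuclei (0.12), and in CA2-like nuclei it moved the share of called genes that were higher from 67.3% to 52.6%. TMM also moved this share from 82.4% to 72.2% in immature dentate granule-like, 16 of 33 to 8 of 32 in cycling progenitor-like and 59.1% to 47.6% in astrocyte-like nuclei, and median-of-ratios scaling moved it from 54.5% to 40.0% in microglia-like nuclei. No paired analysis was possible because each group is 1 library, and none could be left out for the same reason.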

Other observations

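Outside the neurons of the trisynaptic circuit, partner genes differed at least 2-fold in several small or glial classes. In oligodendrocyte-like nuclei, where 3.16% of all tested genes were called, Ndst4 had 58.4 and 279 CPM in the control and labelled knockout library (log2 ratio 2.26, 2.13 to 2.39), with 2.40 in female and 2.17 in male nuclei. This was opposite in sign to its ratio of -1.27 in dentate granule-like nuclei. Igsf21, a ligand of neurexins at inhibitory synapses, had 4.41 and 13.0 CPM (1.55), Sdc2, a syndecan, had 10.5 and 24.1 CPM (1.19), and Hs3st1, a heparan sulfate 3-O-sulfotransferase, had 119 and 58.5 CPM (-1.03). In CA2-like nuclei, with 144 and 117 nuclei, 4 of the 54 listed genes that passed were called, all higher, beside 3.48% of all genes. They were Nlgn3 (1.11), a postsynaptic neurexin ligand, the heparan sulfate 6-O-sulfotransferases Hs6st2 (2.64) and Hs6st3, and the sulfatase Sulf1 (2.31). Hs6st3 had 503 and 960 UMIs, or 143 and 392 CPM (1.45), with 1.64 in female and 1.60 in male nuclei. Its sign was opposite to that in dentate granule-like nuclei (-1.26). The difference between classes was not tested. In subicular or cortical excitatory-like nuclei Ndst3 had 86.1 and 40.8 CPM (-1.08), past 2-fold in both sexes. These genes were named after their values were seen.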
